A study of Mus musculus with 24 samples.

Results

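Cisplatin libraries of mouse kidney inner medulla in which the injury transcript Lcn2 stayed low were compared with all saline libraries. They were chosen by a measured value: a cisplatin library was taken when its Lcn2 count, divided by the total of its column, lay under 1000 counts per 1000000 (CPM). The rule found 4 of 11 cisplatin libraries (male cisplatin 6 and female cisplatin 1, 2 and 3), called the low-Lcn2 libraries here. With the 13 saline libraries they make 17 of the 24 libraries of the series. The question is which transcripts differ after cisplatin where the injury programme is low.

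All animals were C57BL/6 mice aged 9 to 10 weeks. Each received 100 µl intraperitoneally, once, and tissue was taken 72 h later. The saline group had the vehicle alone (6 male and 7 female libraries), and the cisplatin group 15 mg/kg of the drug dissolved in saline (6 male and 5 female). The low-Lcn2 set held 1 male and 3 female libraries, and the remaining 7 cisplatin libraries 5 male and 2 female ones. The inner medulla was dissected and snap frozen, and poly(A) RNA was sequenced from this whole tissue. The labels do not say that a library is 1 mouse, so the p-values reflect how far libraries scatter, which may in part be technical. They also take the choice of the 4 libraries as given. For this reason a fit of all 11 cisplatin against all 13 saline libraries, which uses the labels only, was also made. Its totals are given, and its values for some of the called genes.

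Cisplatin is a platinum drug against tumours that forms adducts and crosslinks on DNA, blocks replication and transcription, and injures kidney tubules. Injured tubule cells release lipocalin-2, the product of Lcn2, and the kidney's response includes p53 targets, cytokine and interferon signalling, and stress pathways. The inner medulla, the deepest zone of the kidney, holds collecting ducts with their water-reabsorbing principal cells, thin limbs, interstitial cells and capillaries, and lies in a hypertonic environment.

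Lcn2 itself was at 219.7 CPM of the column total in male cisplatin 6, and at 529.2, 115.4 and 123.1 CPM in female cisplatin 1, 2 and 3. The 13 saline libraries ran from 48.67 to 130.2 CPM. Female cisplatin 2 and 3 therefore lay inside the saline range, and the other members above it. The cisplatin library nearest to the threshold on its other side was male cisplatin 4 at 1315 CPM, and the remaining 6 ran from 2110 to 6191 CPM. These values chose the libraries, so they are given as a description and the place of Lcn2 in the fit is no result.

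**Figure D1:**
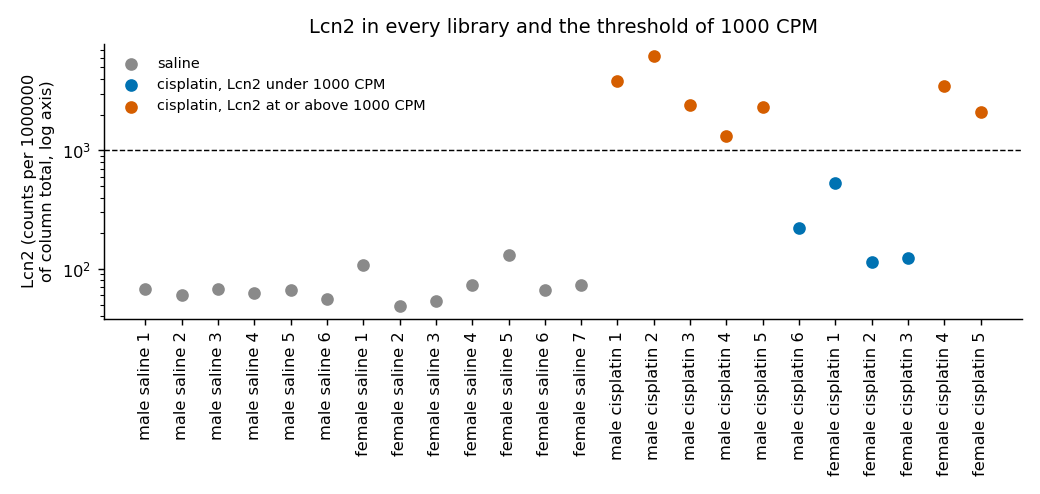
Lcn2 in each of the 24 libraries, in counts per 1000000 of the column total on a log axis, with the threshold of 1000 CPM as a dashed line. The 4 low-Lcn2 cisplatin libraries sit between 115.4 and 529.2 CPM, against 48.67 to 130.2 CPM under saline and 1315 CPM or more in the other 7 cisplatin libraries.

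Other injury transcripts are listed here as a description of these libraries. The rule chose these libraries by an injury transcript, so genes that follow Lcn2 are low in them by choice. The same holds wherever medians of the low-Lcn2 set and the other 7 cisplatin libraries are set side by side below. All levels from here on are CPM with library sizes scaled by TMM factors, and differences are log2 fold changes with sex as a covariate. Of 15 tested genes of tubular injury and repair other than Lcn2, 1 passed upward (Spp1) and 0 downward, and their median log2 fold change was -0.07. The same median was 0.66 in the other 7 cisplatin libraries. Havcr1, which encodes the kidney injury molecule of proximal tubules, was at 0 CPM in male cisplatin 6 and female cisplatin 2 and 3, and at 0.172 CPM in female cisplatin 1. Proximal tubules lie outside the inner medulla, so levels near 0 of Havcr1 say little about injury here. Clu, the secreted chaperone clusterin, was at 87.5, 167, 87.3 and 173 CPM in male cisplatin 6 and female cisplatin 1, 2 and 3, against 62.4 to 133 CPM under saline. Female cisplatin 1 and 3 thus exceeded the saline range for Clu, whose log2 fold change of 0.34 ± 0.17 (SE) did not pass (adjusted p of 0.692).

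Column totals ran from 18.1 to 27.3 (in units of 1000000 counts) over the 24 libraries and from 18.8 to 26.6 in the low-Lcn2 set, so that 1 count was worth 0.0352 to 0.0552 CPM. The markers of the dissected zone were present throughout. The summed level of 18 principal cell genes ran from 7788 to 10620 CPM in the low-Lcn2 set against 8487 to 12910 CPM under saline. Female cisplatin 1 (7984 CPM) and female cisplatin 2 (7788 CPM) thus lay below every saline library. The sum of 12 thin limb genes ran from 10870 to 12910 against 9991 to 15060 CPM. Genes of the thick ascending limb, a segment outside the inner medulla, summed to 4255 to 10530 against 1660 to 14940 CPM, and those of the proximal tubule to 192 to 528 against 222 to 1315 CPM. Female saline 6 had the lowest thick ascending limb sum, and female saline 1 had the highest sum of lymphocyte genes (57.6 CPM, against 6.04 to 10.7 CPM in the other 12 saline libraries).

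In edgeR's quasi-likelihood test over 17864 genes, 28 were higher (0.157%) and 10 lower (0.056%) in the low-Lcn2 libraries than under saline at an adjusted p under 0.05. Lcn2 is 1 of the 28 and is left out of the counts of higher genes that follow, except the totals of other fits and where it is said to be included. Of the other 27 higher genes 16 rose by at least 2-fold, and of the lower ones 8 fell by that much. At an unadjusted p under 0.05, 1313 genes passed (7.35%). In the fit by label, 2801 of 16781 genes were higher (16.7%) and 1965 lower (11.7%), or 28.4% in either direction. Of the 37 low-Lcn2 calls other than Lcn2, 36 also passed there. That fit holds the same low-Lcn2 and saline libraries, so this overlap is no independent check. The count of lower genes was 19 without female saline 6 and 30 without female saline 2, and that of higher genes 15 without male cisplatin 6. With female libraries only, 5 genes were higher and 4 lower, and the calls kept were those of Trpv6, Trpv5, Prr15, Gm13398, 2310043M15Rik and the 4 hemoglobin genes. The adjusted p of the other 28 genes called with both sexes, Lcn2 aside, ran there from 0.0504 (Tyro3) to 0.981 (Chac1), with 0.114 for Oas2 and Alas2. With the other cisplatin libraries in the fit as a level of their own, the calls of Dpyd, Cuzd1, Ephx2, Mgll, Tha1, Flot2, Prdx3, Chac1, Ssbp4, Spp1, Clca3a2, Immp2l and Mapk13 were lost (adjusted p from 0.0779 for Dpyd to 1 for Mapk13).

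The position of each library against the saline range was counted. Of the 27 higher genes, 26 lay above every saline library in male cisplatin 6, 25 in female cisplatin 1, and 26 in each of female cisplatin 2 and 3. All 10 lower genes lay below every saline library in each of the 4. The calls rest on the same libraries, so these positions largely follow from them and are a description. For single libraries the share over all genes was not counted. Over all genes tested, 34 (0.19%) had all 4 libraries above the saline range and 22 (0.123%) had all 4 below it. The other 7 cisplatin libraries share these saline controls. Their log2 fold change was the larger for all 27 higher genes, and for 20 of them the highest low-Lcn2 library stayed below the lowest of the 7. All 10 lower genes overlapped between both sets of cisplatin libraries. The rule split these sets by Lcn2, so genes that follow Lcn2 separate between them by choice. The same counts over all genes were not made, and these are a description only.

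**Figure D2:**
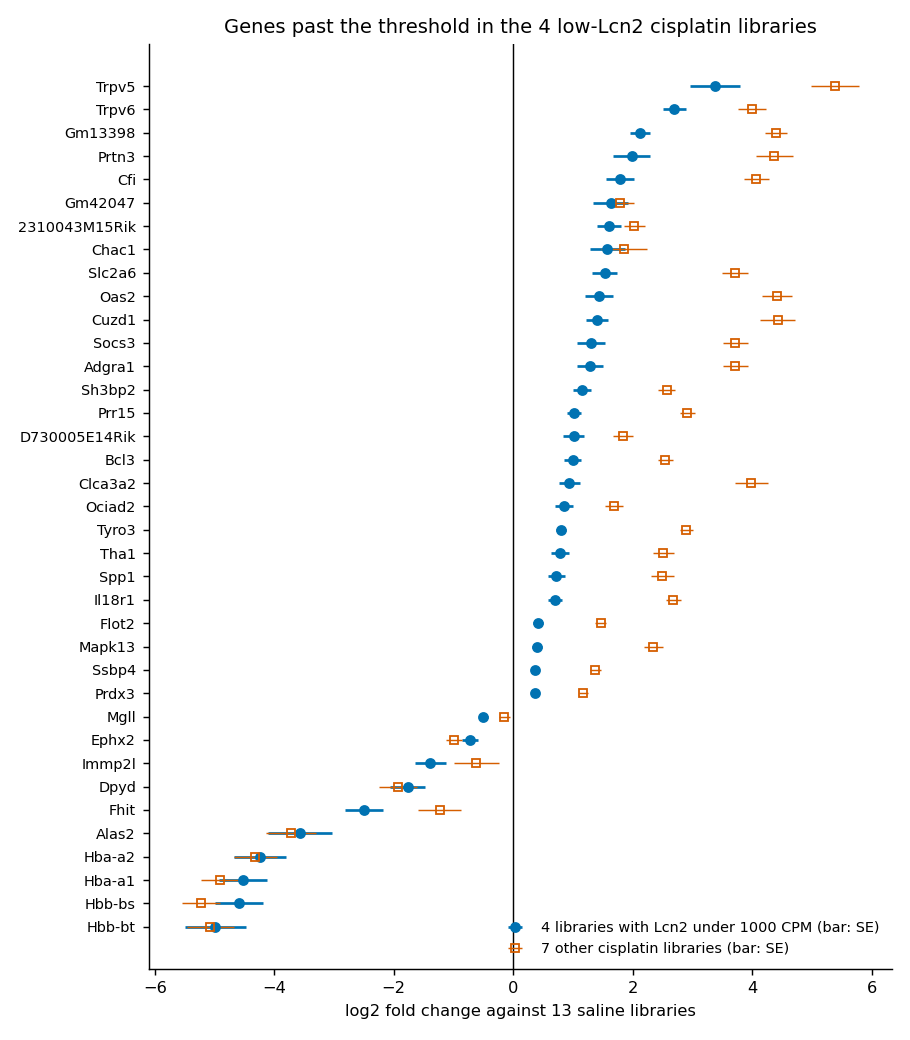
Log2 fold change against the 13 saline libraries of the 37 genes other than Lcn2 that passed the threshold, in the 4 low-Lcn2 cisplatin libraries (filled circles) and in the 7 other cisplatin libraries (open squares), with bars for the SE. The squares lie to the right of the circles for the higher genes, while for hemoglobin genes, Alas2 and Dpyd both lie close together and for Fhit, Immp2l and Mgll the circles lie farther from 0.

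The calcium channel genes Trpv6 and Trpv5 had the largest rises. They encode the apical channels of epithelial calcium uptake, lie next to each other on chromosome 6, and are known as channels of the distal nephron and, for Trpv6, of intestine and other epithelia. Trpv6 was at 22.7 CPM in male cisplatin 6 and at 36, 47.0 and 22.8 CPM in female cisplatin 1, 2 and 3, while the saline libraries spanned 2.57 to 9.18 CPM (median 4.13). Every low-Lcn2 library lay above every saline library, with the highest value in female cisplatin 2. The log2 fold change was 2.70 ± 0.19, or 6.49-fold, with an adjusted p of 5.14e-07, and it was 3.57 in the fit by label (adjusted p of 1.41e-09). In the other 7 cisplatin libraries Trpv6 ran from 35.2 to 97.5 CPM, which overlaps the low-Lcn2 set. Fewer cells of a type and less RNA per cell, or more of either, cannot be told apart in RNA of whole tissue, here and for the genes that follow.

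Trpv5 had lower counts. Its level was 1.02 CPM in male cisplatin 6 and 4.53, 2.39 and 1.00 CPM in female cisplatin 1, 2 and 3, from 28, 105, 54 and 19 counts. Under saline it ran from 0.0418 to 0.460 CPM (median 0.190), from 1 to 11 counts. The groups did not overlap, and the log2 fold change was 3.38 ± 0.42 (adjusted p of 3.27e-04), against 4.80 in the fit by label (adjusted p of 1.82e-07). The neighbouring Kel, which encodes an endopeptidase of the red cell surface, had too few counts to be tested. It was at 0.182, 0.819, 0.709 and 0.317 CPM in male cisplatin 6 and female cisplatin 1, 2 and 3, against 0 to 0.329 CPM under saline, so that female cisplatin 1 and 2 lay above the saline range. Whether the counting used strand is unknown.

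Other genes of calcium handling did not pass. Of 16 tested genes of vitamin D and calcium regulation, 2 rose (Trpv5 and Trpv6), 0 fell, and the median log2 fold change was -0.32, with 3 members above 0. Calb1, the calcium buffer of the distal tubule, was at -1.66 ± 0.52 (adjusted p of 0.378), and S100g, a smaller buffer protein of the same kind, at -0.33 ± 0.37 (adjusted p of 0.900). Vdr, the vitamin D receptor, was at -0.48 ± 0.26 (adjusted p of 0.742). Cyp24a1, the vitamin D catabolic enzyme that the receptor induces, was at -0.40 ± 0.43 (adjusted p of 0.893). Summed levels of 15 genes of the distal convoluted and connecting tubule, segments that express Trpv5, ran from 627 to 1610 CPM in the low-Lcn2 set, inside the 372 to 2027 CPM of the saline libraries.

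The promoters of Trpv6 and Trpv5 are shown because both genes moved in every low-Lcn2 library, together with that of Socs3, a cytokine-induced gene described after them. Each sequence is the 250 bases before the annotated gene start, on the minus strand, from RefSeq's GRCm38.p6. The windows are chr6:41636406-41636655, chr6:41680724-41680973 and chr11:117969367-117969616. Capitals mark matches to TTCNNNGAA, the palindromic element that STAT transcription factors bind, which reads the same on both strands.
Trpv6: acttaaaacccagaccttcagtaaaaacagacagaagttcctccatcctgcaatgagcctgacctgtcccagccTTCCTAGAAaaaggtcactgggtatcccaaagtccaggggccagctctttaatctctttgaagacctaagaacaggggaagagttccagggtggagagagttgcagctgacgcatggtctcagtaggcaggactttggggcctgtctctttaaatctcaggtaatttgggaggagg
Trpv5: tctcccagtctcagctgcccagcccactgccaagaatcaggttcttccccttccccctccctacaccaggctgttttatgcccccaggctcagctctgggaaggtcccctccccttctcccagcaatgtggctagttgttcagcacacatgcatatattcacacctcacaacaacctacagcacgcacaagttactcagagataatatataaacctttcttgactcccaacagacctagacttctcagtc
Socs3: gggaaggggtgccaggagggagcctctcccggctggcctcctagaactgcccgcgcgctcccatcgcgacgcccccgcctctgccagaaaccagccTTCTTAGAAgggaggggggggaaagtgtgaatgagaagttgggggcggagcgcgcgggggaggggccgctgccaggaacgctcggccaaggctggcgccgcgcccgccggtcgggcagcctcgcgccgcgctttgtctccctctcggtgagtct
The match in the Trpv6 window is TTCCTAGAA, starting 176 bases before the gene start, and that in the Socs3 window is TTCTTAGAA, starting 154 bases before it. The Trpv5 window held 0 matches. Among all 32851 promoters of the table, 2306 held the element in these 250 bases (7.02%). Of the higher genes, here with Lcn2 included, 25 were in the table and 5 held it (Trpv6, Socs3, Il18r1, 2310043M15Rik and D730005E14Rik). Of the 9 lower genes in the table, 0 held it. A match describes the letters only, and binding was not measured.

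**Figure D3:**
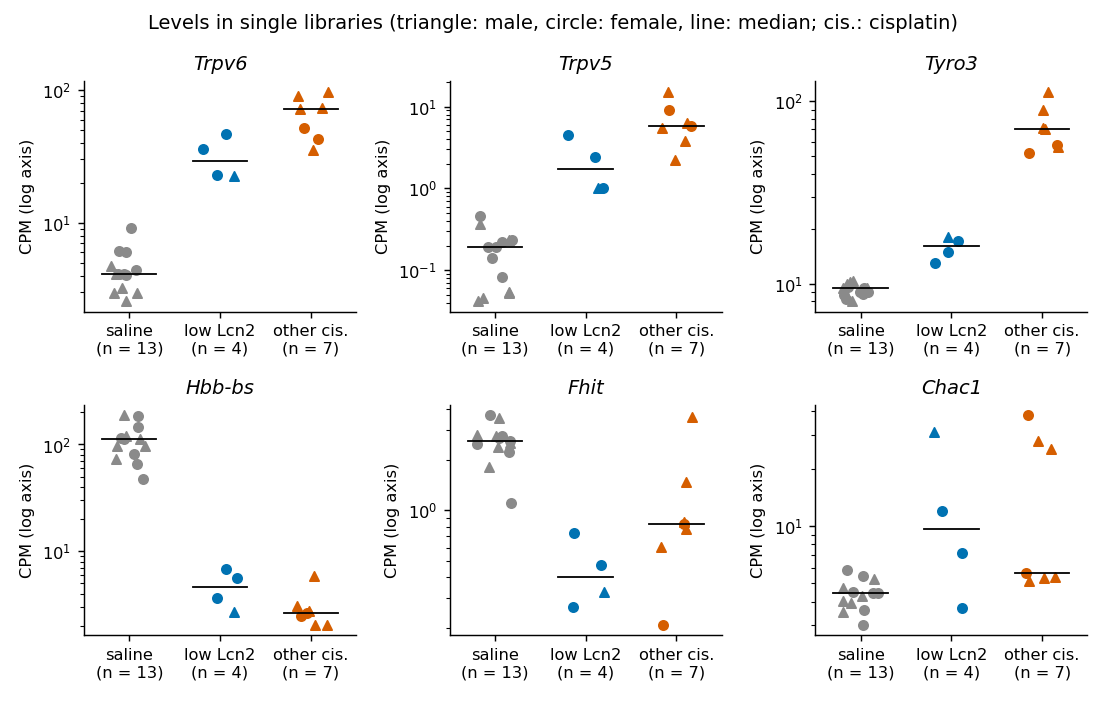
CPM in single libraries on a log axis for 6 genes, under saline (13 libraries), in the 4 low-Lcn2 cisplatin libraries and in the 7 other cisplatin libraries, with triangles for male and circles for female libraries and a line at the median. Trpv6, Trpv5 and Tyro3 are above and Hbb-bs and Fhit below every saline library in all 4, while Chac1 ranges from 3.71 to 31.1 CPM within the 4.

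Among genes of cytokine and innate immune signalling, Socs3, Oas2, Cfi and Prtn3 were each the lone called member of a list, and Bcl3 and Il18r1, in none of the lists, are given beside them. Socs3, the feedback inhibitor of cytokine receptors that signal through STAT proteins, was at 37.5, 40.4, 14.7 and 26.4 CPM in male cisplatin 6 and female cisplatin 1, 2 and 3. The saline libraries ran from 6.49 to 20.2 CPM (median 11.1), so that female cisplatin 2 fell inside their range and the other 3 above it. Its log2 fold change was 1.30 ± 0.23 (adjusted p of 0.0146), and the call was lost without male cisplatin 6 (adjusted p of 0.347) and without female cisplatin 1 (0.101). Of 21 tested cytokine, chemokine and NF-kB genes, 1 rose and 0 fell, with a median of -0.25 (0.42 in the other cisplatin libraries). The interleukin gene Il6 was at 0 CPM in 3 of the 4 libraries and at 0.0443 CPM in female cisplatin 2.

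Bcl3, an atypical member of the inhibitor family of NF-kB, was at 17.3, 13.6, 11.3 and 10.4 CPM in male cisplatin 6 and female cisplatin 1, 2 and 3, all above the 4.71 to 8.14 CPM of saline. It rose by 1.00 ± 0.15 on the log2 scale (adjusted p of 0.00181), and without male cisplatin 6 the adjusted p was 0.0903. Il18r1, a chain of the interleukin-18 receptor, was at 14.7, 16.0, 12.5 and 14.2 CPM in the same order, against 6.99 to 11.2 CPM. It rose by 0.70 ± 0.12 (adjusted p of 0.00943), and missed the threshold without male cisplatin 6 (0.0958) or female cisplatin 1 (0.0649).

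Oas2, an interferon-induced sensor of double-stranded RNA, was at 10.1, 23.1, 9.22 and 31.0 CPM in male cisplatin 6 and female cisplatin 1, 2 and 3, against 4.60 to 8.77 CPM under saline and 70.2 to 230 CPM in the other cisplatin libraries. All 4 lay above saline, female cisplatin 1 and 3 by far the most. The log2 fold change was 1.43 ± 0.23 (adjusted p of 0.00593), and 3.71 in the fit by label (adjusted p of 2.88e-06). Among the genes of the interferon response that were tested (24), 1 rose and 0 fell. Their median log2 fold change was 0.26, with 22 of 24 above 0, where the median over all genes was 0.00, and it was 1.20 in the other cisplatin libraries. In the fit by label 20 of the 24 rose (16.7% over all genes). The summed level of the list was 894, 1043, 867 and 1336 CPM in male cisplatin 6 and female cisplatin 1, 2 and 3, against 682 to 1041 CPM, so that female cisplatin 3 was above the saline range and female cisplatin 1 at its upper edge. Irf7, the transcription factor that amplifies the response, was at 21.8, 38.3, 28.2 and 57.4 CPM in the same order of libraries against 19.7 to 37.0 CPM, highest in female cisplatin 3 and then 1, without passing (0.30 ± 0.14, adjusted p of 0.685).

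Cfi, the protease complement factor I, was at 7.41, 15.4, 5.99 and 6.12 CPM in male cisplatin 6 and female cisplatin 1, 2 and 3, all above the 1.34 to 3.47 CPM of saline. It rose by 1.79 ± 0.24 (3.47-fold, adjusted p of 5.71e-04), and by 3.46 in the fit by label. None of the other 17 tested complement and acute phase genes passed. Cfb, a protease of the alternative pathway, was at 0.54 ± 0.18 (adjusted p of 0.444).

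Prtn3, which encodes a serine protease of neutrophil granules, was at 2.37, 2.80, 2.84 and 1.06 CPM in male cisplatin 6 and female cisplatin 1, 2 and 3, against 0.191 to 0.987 CPM. It rose by 1.98 ± 0.31 (adjusted p of 0.00498, and 0.0951 without male cisplatin 6). Other neutrophil genes were near 0 in these libraries: Ly6g was at 0 CPM in all 4, S100a8 at 0.133 to 0.264 CPM and Elane at 0 to 0.129 CPM. The 12 listed neutrophil genes summed to 2.74 to 3.99 CPM in the low-Lcn2 set and 0.906 to 2.47 CPM under saline, with Prtn3 included. Prtn3 alone made up 1.06 to 2.84 CPM of the low-Lcn2 sums, so their position above saline is no separate result. Only 2 of the 12 genes had enough counts to be tested. Beside Prtn3 this was Csf3r, at 0.155 ± 0.5 (adjusted p of 0.971). Of 12 tested macrophage and monocyte genes 0 passed. The nearest was Cd14, the endotoxin co-receptor, at 36.6, 65.5, 28.4 and 44.5 CPM against 17.9 to 33.5 CPM (0.73 ± 0.15, adjusted p of 0.0591). Their summed level ran from 92.7 to 176 against 70.1 to 166 CPM.

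The next higher genes were in none of the lists. Tyro3, a receptor tyrosine kinase of the family that binds Gas6 and protein S, was at 18, 17.1, 15.0 and 13 CPM in male cisplatin 6 and female cisplatin 1, 2 and 3. The saline libraries were narrowly spread, from 8.02 to 10.3 CPM (median 9.43), and the other cisplatin libraries ran from 52.0 to 113 CPM. It rose by 0.80 ± 0.09 on the log2 scale (adjusted p of 6.36e-05), and by 2.34 in the fit by label (adjusted p of 3.85e-06). Prr15, a small proline-rich protein, was at 22.8, 19.6, 22.2 and 19.0 CPM against 7.12 to 13 CPM. The 4 libraries were close to each other and clear of saline, and the rise was 1.02 ± 0.12 (adjusted p of 1.56e-04).

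Slc2a6, of the facilitative sugar transporter family, was at 18.5, 13.1, 24 and 14.9 CPM in male cisplatin 6 and female cisplatin 1, 2 and 3, against 2.52 to 9.04 CPM under saline. It rose by 1.53 ± 0.21 (adjusted p of 0.00116). Sh3bp2, an adaptor protein of immune and bone cells, was at 11.9, 9.96, 13.5 and 7.81 CPM against 3.39 to 6.01 CPM and rose by 1.16 ± 0.15 (adjusted p of 5.29e-04). Both had their highest value in female cisplatin 2. Cuzd1, a membrane protein with CUB and zona pellucida-like domains, was at 14.7, 19.9, 10.8 and 8.55 CPM in the same order, against 3.36 to 7.73 CPM. Its rise of 1.40 ± 0.19 (adjusted p of 5.82e-04) compares with 49.9 to 318 CPM in the other cisplatin libraries, and with these in the fit as a level of their own its adjusted p was 0.0951.

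Adgra1, an orphan adhesion receptor, was at 22.7, 21.8, 18.6 and 10.4 CPM in male cisplatin 6 and female cisplatin 1, 2 and 3, with female cisplatin 3 inside the saline range of 4.34 to 12.3 CPM. It rose by 1.284 ± 0.221 (adjusted p of 0.0104), but not without male cisplatin 6 (adjusted p of 0.273) or female cisplatin 1 (0.0649). Clca3a2, of a family of chloride channel regulators, rose by 0.94 ± 0.17 (adjusted p of 0.0191), with its higher values in female cisplatin 1 (8.88 CPM) and 3 (7.86 CPM) and 4.60 and 5.10 CPM in male cisplatin 6 and female cisplatin 2, against 2.34 to 4.38 CPM. It missed the threshold without female cisplatin 1 (0.116) or female cisplatin 3 (0.0915). Ociad2, a membrane protein of endosomes and mitochondria, was at 174, 190, 141 and 124 CPM against 56.6 to 121 CPM and rose by 0.84 ± 0.15 (adjusted p of 0.0151). Without male cisplatin 6 its adjusted p was 0.206, and without female cisplatin 1 it was 0.0925.

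Spp1, which encodes the matrix protein osteopontin, was at 1970, 4150, 2020 and 2970 CPM in male cisplatin 6 and female cisplatin 1, 2 and 3, against 1364 to 2014 CPM. Male cisplatin 6 lay inside the saline range and female cisplatin 2 at its edge. The rise was 0.72 ± 0.14 (adjusted p of 0.0275). It missed the threshold without female cisplatin 1 (0.118), female cisplatin 3 (0.0884), or female saline 1 (0.0548), 3 (0.067), 5 (0.057) or 7 (0.0649).

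The remaining higher genes with a gene name follow. Prdx3, the mitochondrial peroxiredoxin, was at 124, 140, 131 and 126 CPM against 88.6 to 112 CPM and rose by 0.37 ± 0.06 (adjusted p of 0.00943, and 0.078 without female cisplatin 1). Ssbp4, of a family of single-stranded DNA binding proteins, rose by 0.37 ± 0.07 (adjusted p of 0.0126), and missed the threshold without male cisplatin 6 (0.254) or female cisplatin 1 (0.0544). All 4 libraries lay above saline for both. Flot2, a scaffold of membrane rafts, rose by 0.41 ± 0.08 (adjusted p of 0.0272) and Mapk13, a p38 kinase, by 0.40 ± 0.08 (adjusted p of 0.0385). Both also lay above saline in all 4 libraries, from 78.3 to 93.4 against 53.2 to 74.1 CPM and from 17.3 to 19.3 against 12.5 to 16.2 CPM. The call of Flot2 was lost on leaving out female cisplatin 1 (0.147) or 3 (0.118) or female saline 1 (0.0566), 3 (0.0628) or 7 (0.0625). That of Mapk13 was lost without any 1 of the 4 cisplatin libraries (0.18, 0.116, 0.0725 and 0.122 for male cisplatin 6 and female cisplatin 1, 2 and 3) and without male saline 1 (0.0631), 3 (0.0611), 4 (0.0654) or 5 (0.065) or female saline 1 (0.0629), 3 (0.0835), 4 (0.0734) or 7 (0.0833). Tha1, a threonine aldolase, was at 19.4, 8.28, 16.1 and 13.7 CPM in male cisplatin 6 and female cisplatin 1, 2 and 3, with female cisplatin 1 inside the saline range of 7.24 to 11.3 CPM. Its rise of 0.78 ± 0.15 (adjusted p of 0.0244) was lost without male cisplatin 6 (0.477), female cisplatin 2 (0.145), female cisplatin 3 (0.0743), female saline 1 (0.0508) or female saline 7 (0.0543).

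The other 4 higher genes are transcripts without a gene name, chosen for mention after their values were seen. Gm13398 on chromosome 2 was at 5.03, 3.02, 4.35 and 3.54 CPM in male cisplatin 6 and female cisplatin 1, 2 and 3, against 0.682 to 1.33 CPM under saline and 9.90 to 32.5 CPM in the other cisplatin libraries. Its rise of 2.12 ± 0.16 had an adjusted p of 7.31e-07, next to that of Trpv6. The RIKEN transcript 2310043M15Rik on chromosome 16 was at 4.31, 4.10, 6.03 and 3.96 CPM against 0.839 to 2.44 CPM (1.60 ± 0.20, adjusted p of 4.45e-04). Gm42047 rose by 1.63 ± 0.29 (adjusted p of 0.0134, with 0.0544 without male cisplatin 6 and 0.0618 without female cisplatin 3), and D730005E14Rik by 1.01 ± 0.17 (adjusted p of 0.0104, with 0.206 without male cisplatin 6 and 0.0855 without female cisplatin 2). All 4 transcripts lay above saline in each of the low-Lcn2 libraries. Gm13398, 2310043M15Rik and D730005E14Rik are antisense transcripts in the annotation used. Because the strand setting of the counting is unknown, their reads cannot be told from those of a gene on the opposite strand.

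Genes of the integrated stress response varied among the 4 libraries. This pathway raises the transcription factor ATF4 when amino acids are short or proteins misfold, and ATF4 induces amino acid transport and synthesis genes. Chac1, a glutathione-degrading enzyme and ATF4 target, was at 31.1 CPM in male cisplatin 6 and at 3.71, 12 and 7.23 CPM in female cisplatin 1, 2 and 3, against 3.02 to 5.84 CPM under saline. Female cisplatin 1 lay inside the saline range and the other 3 above it. The rise was 1.58 ± 0.29 (adjusted p of 0.0191), and it did not hold without male cisplatin 6 (0.77 on the log2 scale, adjusted p of 0.658) or female cisplatin 2 (0.0865), or with the outer segment marker score as a covariate (0.0564).

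Of 20 tested genes of this response 1 rose and 0 fell, with a median of 0.08 against 0.99 in the other cisplatin libraries. Several members were highest in male cisplatin 6 and then in female cisplatin 2, as Chac1 was, and are named here after their values were seen. Trib3, a pseudokinase that dampens ATF4, was at 34.2 CPM in male cisplatin 6 and 11.4 CPM in female cisplatin 2, and at 1.72 and 4.12 CPM in female cisplatin 1 and 3, against 2.10 to 5.42 CPM under saline. Asns, asparagine synthetase, was at 40.4 and 30.9 CPM in the first pair and at 13 and 11.4 CPM in the other pair, against 10.5 to 21.4 CPM. Slc7a5, a transporter of large neutral amino acids, was at 36.8 and 24.7 CPM and at 10.1 and 10.6 CPM, against 7.53 to 13.4 CPM. For these 3 genes male cisplatin 6 and female cisplatin 2 exceeded every saline library, and female cisplatin 1 and 3 did not. The mitochondrial folate enzyme gene Mthfd2 was at 75.6 and 40.0 CPM in male cisplatin 6 and female cisplatin 2, and at 22.6 and 16.1 CPM in female cisplatin 1 and 3, against 13.2 to 23.6 CPM. None of the 4 passed: the log2 fold change was 1.67 ± 0.40 for Trib3 (adjusted p of 0.122), 0.61 ± 0.23 for Asns (0.529), 0.93 ± 0.21 for Slc7a5 (0.101) and 1.04 ± 0.23 for Mthfd2 (0.0965). Oas2 and Irf7 had their higher values in female cisplatin 1 and 3. No difference among the 4 libraries was tested.

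Hemoglobin genes had the largest falls. They are transcripts of erythroid cells, carried into tissue by immature red cells in blood. Hbb-bs was at 2.70 CPM in male cisplatin 6 and at 3.66, 5.63 and 6.86 CPM in female cisplatin 1, 2 and 3, against 47.6 to 188 CPM (median 112) under saline. Every low-Lcn2 library was far below every saline library, and the other cisplatin libraries (2.04 to 5.90 CPM) overlapped the low-Lcn2 set. Its log2 fold change was -4.59 ± 0.41 (adjusted p of 4.20e-06), against -4.94 in the fit by label (adjusted p of 4.86e-12).

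Hba-a1 was at 1.97, 3.28, 4.12 and 4.48 CPM in the same order, against 34.3 to 134 CPM. It fell by 4.53 ± 0.40 on the log2 scale (adjusted p of 4.20e-06). Hbb-bt (-4.99 ± 0.51, adjusted p of 3.11e-05) and Hba-a2 (-4.24 ± 0.44, adjusted p of 3.43e-05) also fell. Since each beta and each alpha pair is almost the same in sequence, how reads were divided within a pair is uncertain. Alas2, the erythroid enzyme that begins heme synthesis, was at 0.0365, 0.647, 0.399 and 0.791 CPM, from 1, 15, 9 and 15 counts, against 2.11 to 10.2 CPM (-3.57 ± 0.53, adjusted p of 0.00238).

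Of 12 tested erythroid genes 5 fell and 0 rose, with a median of -1.18 (-1.62 in the other cisplatin libraries) and 0 members above 0. At an unadjusted p under 0.05, 7 of the 12 were lower (658 of 17864 over all genes). In all 4 libraries 6 lay below the saline range (22 over all genes). Members that did not pass include genes that kidney cells also express. Slc25a37, a mitochondrial iron carrier, was at -0.01 ± 0.08 and Fech, the last enzyme of heme synthesis, at -0.03 ± 0.05. Slc4a1, an anion exchanger also of intercalated cells, was at -0.53 ± 0.27.

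The next largest falls were in 3 long genes. Fhit on chromosome 14 encodes a dinucleoside triphosphate hydrolase, lies across a common fragile site, and spans 1612 kb in the annotation used. It was at 0.328, 0.733, 0.266 and 0.475 CPM in male cisplatin 6 and female cisplatin 1, 2 and 3, from 9, 17, 6 and 9 counts, against 1.10 to 3.67 CPM (median 2.57) under saline. The groups did not overlap, and the other cisplatin libraries spread from 0.209 to 3.56 CPM, over both. The log2 fold change was -2.50 ± 0.32 (adjusted p of 4.54e-04), and -1.62 in the fit by label (adjusted p of 0.00150).

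Dpyd on chromosome 3 (871 kb), the enzyme that degrades pyrimidines, was at 1.06, 1.77, 0.576 and 1.27 CPM against 2.29 to 7.24 CPM. It fell by 1.77 ± 0.30 on the log2 scale (adjusted p of 0.00943), and without male cisplatin 6 the adjusted p was 0.0903. Immp2l on chromosome 12 (932 kb), a subunit of the inner mitochondrial membrane peptidase, was at 1.61, 1.51, 0.621 and 0.897 CPM against 2.04 to 4.43 CPM. It fell by 1.39 ± 0.26 (adjusted p of 0.0208), and missed the threshold without female cisplatin 2 (0.0881) or female cisplatin 3 (0.0952) and in the fit by label (-0.89, adjusted p of 0.0501). For all 3 genes the lowest of the 4 values was that of female cisplatin 2.

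Genes were therefore described by genomic span. The median log2 fold change was 0.05 for 6033 tested genes under 10 kb, with 38.5% of them below 0. It was -0.02 for 4478 genes of 30 to 100 kb, -0.08 for 1656 genes of 100 to 300 kb (73.4% below 0), and -0.22 for 376 genes of 300 to 1000 kb (87.2% below 0). For 34 genes over 1000 kb it was -0.19, with 27 of 34 below 0. In the other cisplatin libraries the medians of the last 2 classes were -0.30 and -0.33. Few of these genes passed singly: above 300 kb, 0 were higher and 3 lower, which are Fhit, Dpyd and Immp2l. Among the 34 longest the lowest log2 fold change was that of Astn2, at -2.70 ± 0.62 from few counts, which did not pass (adjusted p of 0.103).

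Single libraries were described in the same way. As the median difference of genes of 300 to 1000 kb from the saline mean of the same sex, male cisplatin 6 was at -0.24 and female cisplatin 2 at -0.26, while female cisplatin 1 was at -0.05 and female cisplatin 3 at -0.11. The saline libraries ran from -0.25 to 0.13, the lowest being female saline 6 and the next -0.07. Female saline 6 thus reached the level of male cisplatin 6 and female cisplatin 2, and it is also the library with the lowest thick ascending limb sum. Female cisplatin 1 lay within the range of the other 12 saline libraries. The part of tissue composition or RNA quality in this pattern was not tested.

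**Figure D4:**
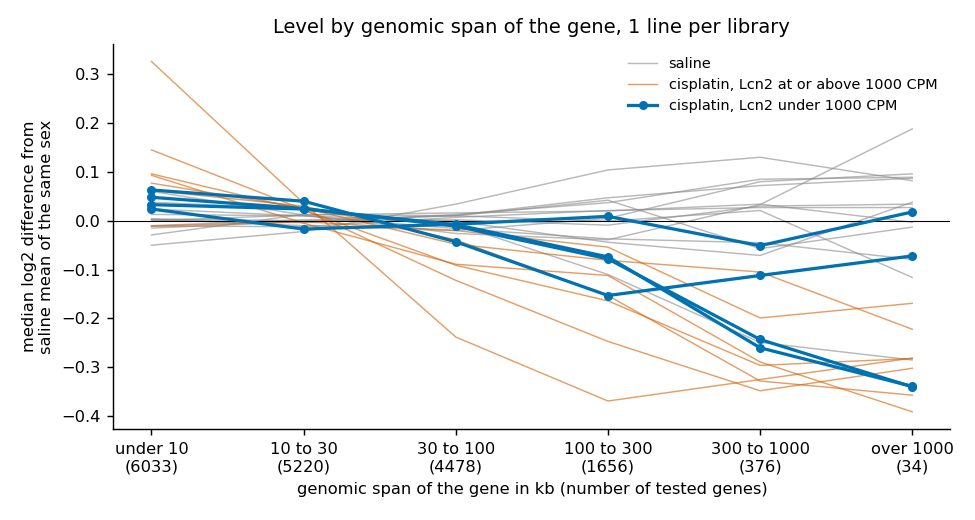
Median log2 difference from the saline mean of the same sex, by genomic span of the gene in kb, with 1 line per library and the number of tested genes under each class. For genes of 300 to 1000 kb male cisplatin 6 and female cisplatin 2 are at -0.24 and -0.26, next to female saline 6 at -0.25, and female cisplatin 1 and 3 at -0.05 and -0.11.

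The last lower genes are a pair of lipid enzymes. Ephx2, soluble epoxide hydrolase, which breaks down epoxides of arachidonic acid, was at 49.8, 31.6, 48.0 and 48.1 CPM in male cisplatin 6 and female cisplatin 1, 2 and 3, against 57.4 to 104 CPM. It fell by 0.72 ± 0.13 on the log2 scale (adjusted p of 0.0171), with female cisplatin 1 the lowest, and missed the threshold without male cisplatin 6 (0.158) or female cisplatin 1 (0.0925). Mgll, monoacylglycerol lipase, which degrades the endocannabinoid 2-arachidonoylglycerol, was at 103, 89.7, 105 and 78.4 CPM against 116 to 146 CPM. It fell by 0.50 ± 0.08 (adjusted p of 0.00372), and the other cisplatin libraries, from 82.5 to 162 CPM, spread over both groups. With these in the fit as a level of their own its adjusted p was 0.131.

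Of 44 gene lists, 35 held no gene other than Lcn2 that passed, and 24 of the 37 called genes without Lcn2 were in none of the lists. Over all genes tested only 0.213% passed in either direction, Lcn2 included. A list with 0 calls is therefore the usual outcome and no result about its genes. Of 40 tested p53 targets 0 passed in either direction, with a median of 0.09 and 29 above 0. In the fit by label 15 were higher and 4 lower, where 16.7% of all genes were higher and 11.7% lower. Cdkn1a, the cyclin-dependent kinase inhibitor that p53 induces, was at 65.0, 38.2, 69.5 and 55.6 CPM in male cisplatin 6 and female cisplatin 1, 2 and 3, against 27.8 to 62.2 CPM. Male cisplatin 6 and female cisplatin 2 exceeded the saline range and the others did not, and the log2 fold change was 0.34 ± 0.19 (adjusted p of 0.751). Aen, a nuclease of p53-driven apoptosis, was the p53 target with all 4 libraries above saline (35.6 to 41.2 against 26.5 to 35.3 CPM), at 0.30 ± 0.07 (adjusted p of 0.122).

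Of 27 tested genes of platinum adduct and crosslink repair 0 passed (median 0.04), nor did any of 24 cell cycle genes (-0.08) or 23 genes of regulated cell death (0.07). Among 26 tested targets of NRF2, the regulator of the antioxidant response, 0 passed (median 0.04). In the fit by label 15 were higher and 1 lower (16.7% and 11.7% over all genes). Mt1, a metal-binding metallothionein, was at 27.8, 34.9, 67.0 and 52.8 CPM in male cisplatin 6 and female cisplatin 1, 2 and 3, inside the saline range of 11.7 to 107 CPM. In all these lists a missed threshold with 4 libraries does not show that the genes were unchanged.

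The lists of the tissue's own cells held no calls either. At an unadjusted p under 0.05, 4 of 16 principal cell genes were lower and 1 higher (658 and 655 of 17864 over all genes). For 16 tested principal cell genes the median was -0.17, and Aqp2, their vasopressin-dependent water channel, was at 7600, 5050, 4500 and 5580 CPM against 5036 to 8898 CPM, with female cisplatin 2 below saline (-0.17 ± 0.15, adjusted p of 0.857). For 23 genes of osmoprotection the median was -0.10, close to that of the other cisplatin libraries (-0.10). Akr1b3, aldose reductase, which makes the osmolyte sorbitol, was at 4230 to 5790 CPM, inside the saline range of 3577 to 7160 CPM, whereas the other cisplatin libraries ran from 510 to 3361 CPM. For 16 endothelial genes the median was 0.03 (-0.48 in the other cisplatin libraries) and for 26 genes of fibroblasts and matrix -0.16 (-0.83). For 20 proximal tubule genes it was -0.39, with 0 above 0, and for 11 thick ascending limb genes -0.05, and the part of these outer segments in the gene-level results was not tested beyond the covariate fit, which gave 29 higher and 11 lower genes.

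**Figure D5:**
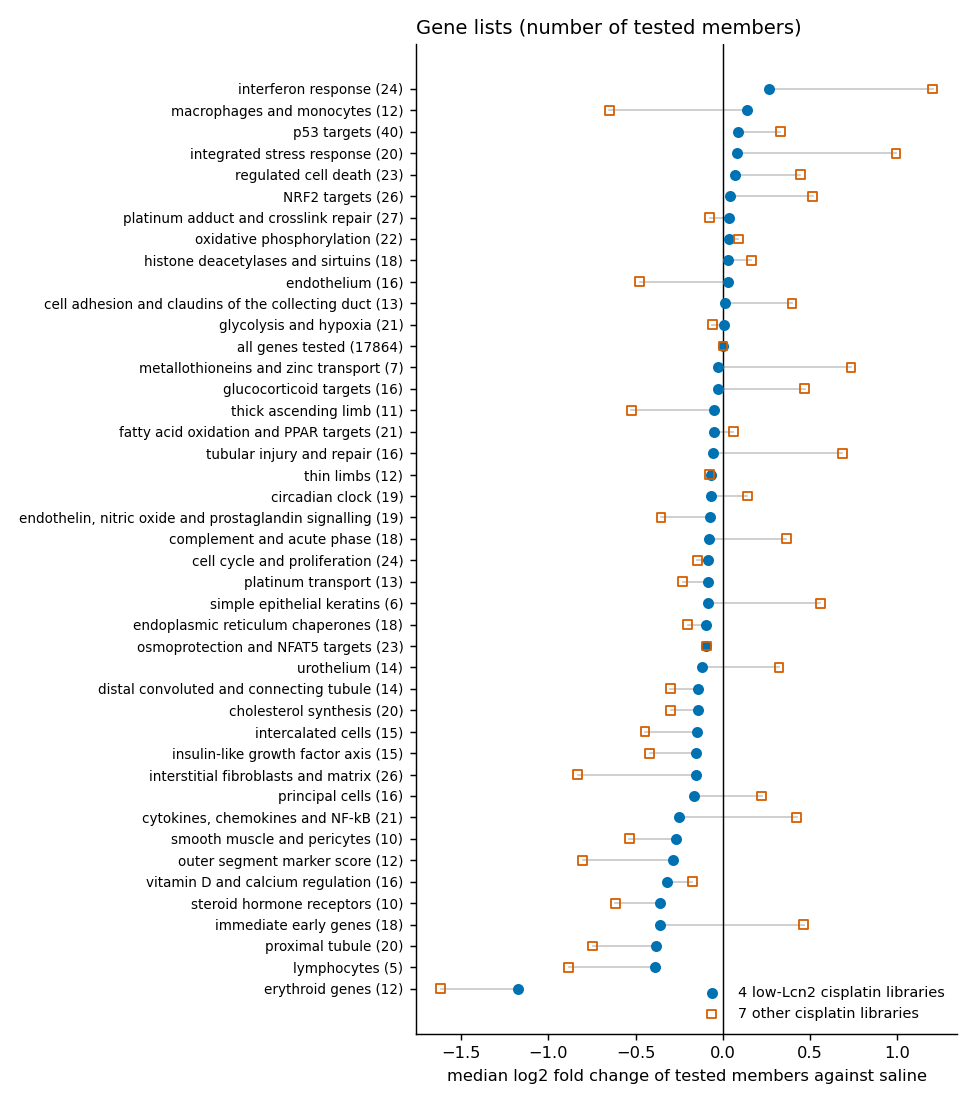
Median log2 fold change against saline of the tested members of each gene list with at least 5 of them (numbers in brackets), in the 4 low-Lcn2 libraries (filled) and the 7 other cisplatin libraries (open). The low-Lcn2 medians lie between -0.39 and 0.26 except for the erythroid genes at -1.18, while the open squares spread to 1.20 for the interferon response.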

How the data were processed

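The values used were the counts per gene that the authors deposited, whole numbers under Ensembl identifiers. Trim Galore 0.6.7, Subread 2.0.1, featureCounts, DESeq2 1.28.1 and the build mm10 are listed in the submitters' processing notes. The sources used here do not give the aligner, annotation release or strand setting. Symbols came from a reference table (52083 of 55416 identifiers matched), and chromosomes and spans from GENCODE M21, on GRCm38.

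In R 4.3.3 with edgeR 4.0.16, genes passing filterByExpr (minimum count 10) were TMM-scaled and fitted with sex and treatment as terms, and quasi-likelihood p-values were Benjamini-Hochberg adjusted over all genes tested, with 0.05 as the threshold. The fit of the low-Lcn2 libraries held 17, the fit by label 24, and a fit with 3 levels gave the other cisplatin libraries. The script was tested on simulated counts. SE is the log2 fold change over the root of F. No library repeated another in its group (chi-square per gene at least 7.88 over 61 pairs).

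The members and the 44 gene lists were chosen with earlier results of these data known. Named genes were Lcn2, the 15 highest and 12 lowest called genes clear of the saline range at 1 CPM or more, up to 4 called or 2 most abundant genes per list, and the 3 smallest p-values left in each direction. The remaining called genes, and list members given beside these, were named after their values were seen. Replicate numbers do not pair libraries: same-number libraries correlated at -0.326 to 0.326. Alternatives were another scaling, filter, covariate, tool, threshold or left-out library.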

Additional observations from a re-analysis of the deposited data

Results flagged for a closer look

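In groups of 4 to 10 libraries, 12 of 114 gene and group combinations had an extreme library farther from its neighbour than Dixon's 95% limit allows, where chance flags about 1 in 20. Among the low-Lcn2 libraries, female cisplatin 1 had the highest Cfi (15.4 CPM) and the lowest Ephx2 (31.6 CPM), and female cisplatin 2 the highest 2310043M15Rik (6.03 CPM). Among male saline libraries, male saline 3 had the highest Clca3a2 (3.86 CPM), male saline 2 the highest Ociad2 (115 CPM) and Ssbp4 (91.1 CPM), male saline 1 the highest Dpyd (5.41 CPM), and male saline 6 the lowest Tyro3 (8.02 CPM) and Mgll (116 CPM). Among female saline libraries, female saline 4 had the highest Trpv6 (9.18 CPM), female saline 1 the highest Trpv5 (0.46 CPM) and female saline 5 the highest Hbb-bt (37.2 CPM). Of 38 called genes (Lcn2 included), 0 moved in opposite directions in the male and the female low-Lcn2 libraries. They were called on 1 term shared by both sexes, so such genes could hardly pass and the count is no result. The difference between the sexes was not tested with 1 male library.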

How the results depend on the processing

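Over 28 alternatives, 9 of 37 called genes (without Lcn2) passed each time: Hba-a1, Hba-a2, Hbb-bs, Hbb-bt, Trpv6, Trpv5, Prr15, Gm13398 and 2310043M15Rik. Against 28 higher and 10 lower genes, and 9 higher and 5 lower members of the lists (Lcn2 included throughout), the counts were 2801 and 1965 (149 and 124) in the fit by label, 5 and 4 (2 higher list members) with female libraries only, 13 and 6 (4 higher list members) with a replicate block although the numbers do not pair libraries, and 67 and 49 (15 and 12) with DESeq2 1.42.0. Other cisplatin libraries as a level of their own gave 20 and 8. Leaving out 1 library gave 15 to 40 higher and 8 to 30 lower genes (list members 5 to 10 and 5 to 8), with 15 higher without male cisplatin 6 and 30 and 19 lower without female saline 2 and 6. Without female cisplatin 1, as at a threshold of 500 CPM, 21 and 12 passed. Of the genes named by the rule, 9 that did not pass here passed in the fit by label with the opposite sign: Xpc -0.221, Slc39a10 -0.555, Adgrf5 -0.482, Nr1d1 -0.463, Mcl1 0.428, Fth1 0.426, Mt1 2.46, Krt7 0.353 and Krt18 0.49. In the low-Lcn2 fit they were, in that order, at 0.014 ± 0.052, 0.013 ± 0.084, 0.09 ± 0.075, 0.062 ± 0.194, -0.032 ± 0.1, -0.006 ± 0.063, -0.106 ± 0.432, -0.057 ± 0.077 and -0.104 ± 0.12. Their sign in that fit is therefore uncertain, and no reversal was tested. The cause of these shifts was not tested, beyond the different libraries in each fit. Genes at or near 1 CPM, such as Fhit, Trpv5, Alas2 and Prtn3, rest on few counts.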
